A study of Mus musculus with 2 samples.

Results

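The haematopoietic growth factor receptors described here are 9 genes, chosen by symbol from the 32285 genes listed in the deposited counts of mouse bone marrow. They are *Kit* (the stem cell factor receptor), *Flt3* (the FLT3 ligand receptor), *Csf1r* (the M-CSF receptor), *Csf2ra* (the GM-CSF receptor alpha chain), *Il3ra* (the IL-3 receptor alpha chain), *Csf2rb* (the common beta chain), *Csf2rb2* (its mouse paralog), *Csf3r* (the G-CSF receptor) and *Il6ra* (the IL-6 receptor alpha chain). All 9 had counts in both libraries, where 19281 (Ctrl) and 17906 (cKO) genes had any in the cells kept.

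Growth factor receptors carry the signals by which blood progenitors survive, divide and take up a lineage. *Kit*, *Flt3* and *Csf1r* are receptor tyrosine kinases, which bind their ligand and signal as dimers of a single chain. The other members belong to the cytokine receptors, which have no kinase of their own and signal through JAK kinases bound to their chains. GM-CSF and IL-3 each have a specific alpha chain, and both share the common beta chain, while *Csf2rb2* encodes a beta chain that in the mouse serves IL-3 alone. G-CSF binds a receptor of 1 kind of chain and drives neutrophil production, and the IL-6 receptor alpha chain signals with gp130, the product of *Il6st*.

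Single-cell RNA sequencing with a 3′ kit was available for 1 library labelled control (Ctrl) and 1 labelled *Map4k4*-cKO (cKO), from bone marrow of mice of 13 to 14 weeks on a C57BL/6 background. Each library was a mixture of 2 parts of cells enriched for surface c-Kit, the product of *Kit*, on magnetic beads and 3 parts of bone marrow treated to lyse red cells. Both genotypes carried Mx1-Cre, a Cre recombinase under an interferon-inducible promoter that is not restricted to neutrophils. The methods write the cKO genotype as Mx1-Cre *Map4k4* f/f and that of control littermates as Mx1-Cre *Map4k4* -/-, a notation taken over here as written. Injection of poly I:C, which induces the Cre, is given for the cKO genotype, and the number of mice behind each library was not given in the sources used here. The labels name the age, the tissue and the c-Kit-enriched cells for both libraries alike. With 1 library per condition, no difference between Ctrl and cKO has a replicate check and no test was run. Every interval below is a 95% interval that covers counting error only, and PCR copies were collapsed by unique molecular identifiers (UMIs), short tags added to each RNA molecule at capture.

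There were 10220 barcodes in Ctrl and 6872 in cKO, with totals of 71527701 and 64393950 UMIs, and 9965 and 6718 of them were kept as cells. The median was 4111 UMIs per Ctrl cell and 6243.5 per cKO cell. *Map4k4*, the targeted gene, stood at 72.6 UMIs per 1000000 UMIs (CPM) in the library labelled Ctrl and 64.3 CPM in the library labelled cKO, so this check barely separated the labels and each direction below rests on them. The check sums all kept cells of a library. By RT-PCR, the study reports that stem and progenitor cells lost the *Map4k4* transcript after poly I:C, which this sum does not test. The libraries shared 3010 barcodes, with 0 identical profiles, and 14.3% of those named in both had the same class against 13.2% from the class shares. Cells were sorted into classes by a likelihood score, which sets the summed UMIs of a class's marker genes against their share over all cells, and no receptor member is a marker. The names end in "-like" because they rest on markers alone. The gate named 7428 Ctrl and 4418 cKO cells and left 2537 (25.5%) and 2300 (34.2%) unnamed, with medians of 1315 and 912.5 UMIs. Of all cells, 333 named Ctrl and 134 named cKO cells lay within 5 score units above the score of 10 that admits a cell, and 374 and 225 cells lay within 5 units below it.

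The results turn on 8 classes with at least 50 cells in both libraries. They follow the neutrophil path from stem and multipotent progenitors (HSC/MPP-like) through neutrophil progenitors (ProNeu-like), precursors (PreNeu-like), immature (imNeu-like) and mature neutrophils (mNeu-like), with monocyte progenitors (ProMon-like), monocyte-like cells and megakaryocyte-erythroid progenitors (MEP-like) beside it. Their sizes in Ctrl and cKO were 386 and 126 HSC/MPP-like, 785 and 689 ProNeu-like, 827 and 515 PreNeu-like, 1171 and 958 imNeu-like, and 1856 and 1555 mNeu-like cells. There were 316 and 116 ProMon-like, 500 and 208 monocyte-like, and 393 and 80 MEP-like cells. The gate had no panel for granulocyte monocyte progenitors, a class the study names, so such cells may lie in ProNeu-like or other classes or be unnamed. The cKO cells were deeper in each class, by 1.13 times in ProNeu-like to 2.46 times in mNeu-like cells at the median. PreNeu-like and imNeu-like cells share their markers and are split by cell-cycle genes, as are ProMon-like and monocyte-like cells, so these pairs are ranges of 1 scale: 244 of 1998 Ctrl and 120 of 1473 cKO secondary granule cells lay near the cut. Levels are CPM, the UMIs of a gene per 1000000 UMIs of all cells in a class. UMIs from a 3′ kit are not divided by length, so levels are compared between classes and libraries for 1 gene and not between genes.

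Droplets also hold free RNA, so the same values were taken in plasma cell-like cells, antibody-secreting cells that should lack the myeloid receptors. These were 79 Ctrl and 34 cKO cells with medians of 8959 and 13320 UMIs. A level counted as above them when both its CPM and its UMIs per cell had intervals above theirs. *Il6ra* is a weaker case, because plasma cells may express it themselves. By this measure *Csf2rb* stood above plasma cell-like cells in 7 of the 8 classes in both libraries, *Csf2ra* in 6 and 6, *Csf3r* in 7 (Ctrl) and 6 (cKO), *Csf2rb2* in 5 and 6, *Kit* in 6 and 3, *Il3ra* in 3 and 3, *Flt3* in 3 and 1, *Csf1r* in 2 and 5, and *Il6ra* in 2 and 3. In MEP-like cells *Kit* alone of the 9 stood above them. These counts do not compare the libraries, because the plasma cell-like level rests on few UMIs. It had 13 (Ctrl) and 1 (cKO) UMIs of *Csf1r* and 0 and 4 of *Flt3*. The 34 cKO cells are also fewer than the minimum set for the 8 classes. *Csf1r* passed in HSC/MPP-like, ProNeu-like and mNeu-like cells in cKO only, although its CPM there was not higher than in Ctrl.

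**Figure D1:**
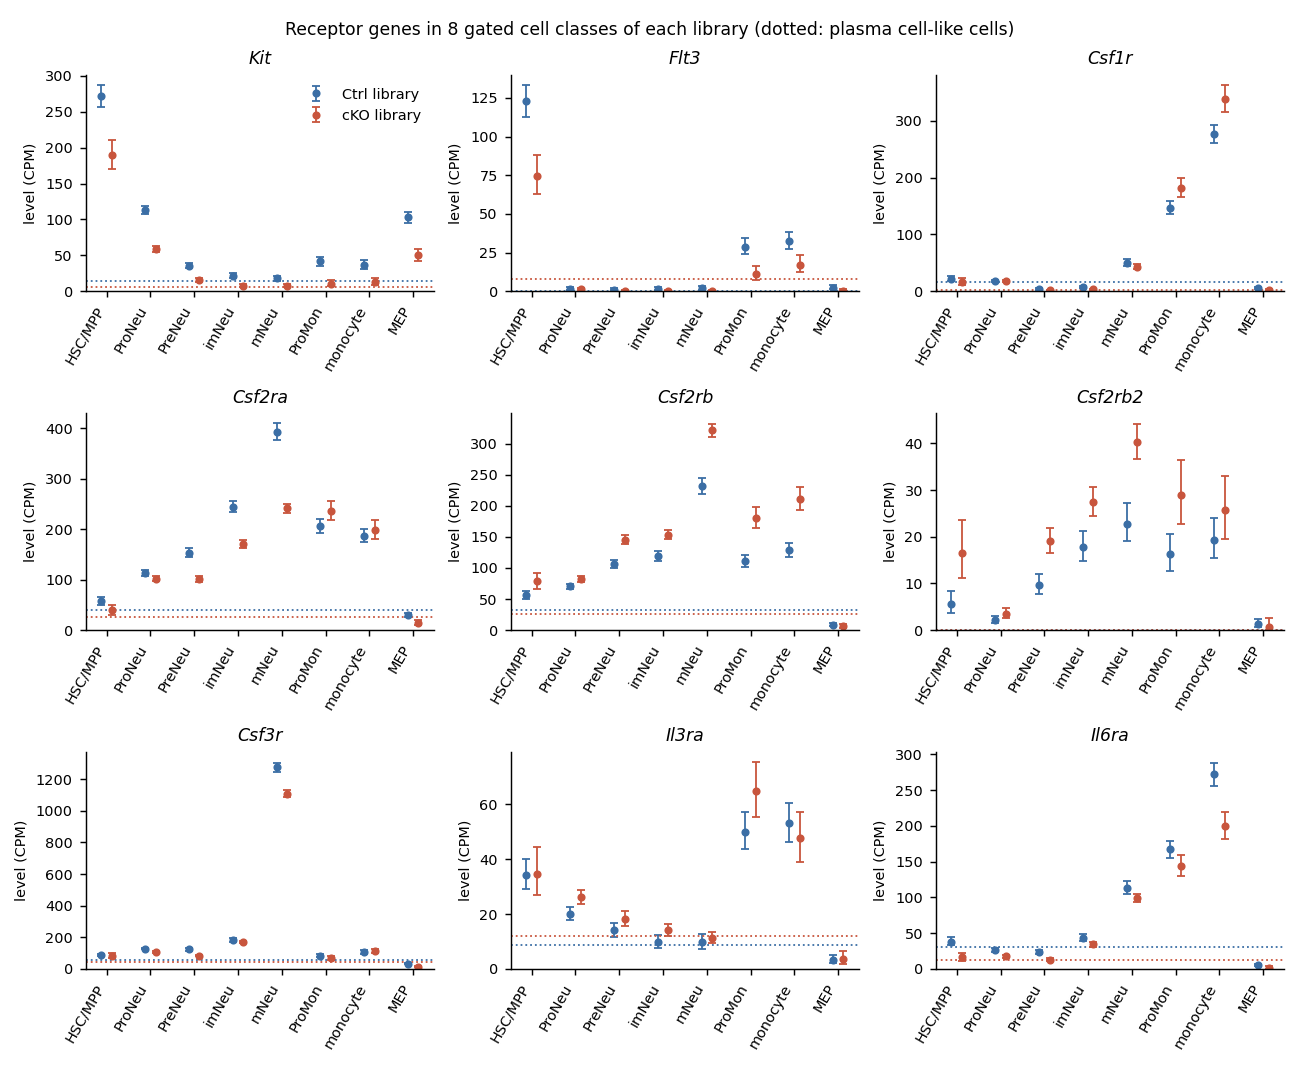
Level of each receptor gene in CPM (vertical) in the 8 classes (horizontal) for the Ctrl and cKO libraries. Points carry exact 95% Poisson intervals for counting error, and dotted lines mark the plasma cell-like level of each library. *Kit* and *Flt3* were highest in HSC/MPP-like cells, *Csf1r* and *Il6ra* in monocyte-like cells, and *Csf3r* in mNeu-like cells at 1275 CPM (Ctrl) and 1109 CPM (cKO).

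*Kit* (ENSMUSG00000005672, chr5:75574916-75656722, + strand, GRCm38) was highest in the earliest progenitors. Its level in HSC/MPP-like cells was 272 CPM (257 to 288) in Ctrl and 190 CPM (171 to 211) in cKO. It was 113 and 58.8 CPM in ProNeu-like and 103 and 49.9 CPM in MEP-like cells. These 3 led the order of the 8 classes in both libraries, with HSC/MPP-like cells above the other two beyond counting error, while ProNeu-like and MEP-like cells were close. Outside the 8 classes, basophil/mast-like cells held 127 CPM in Ctrl (101.5 to 157; 70 cells), which overlaps the ProNeu-like and MEP-like intervals, and 111 CPM (74.6 to 160 over 20 cells) in cKO. PreNeu-like cells held 35.5 and 15.8 CPM, ProMon-like cells 41.5 and 10.5 CPM, and monocyte-like cells 37.1 and 12.8 CPM. The lowest levels, in imNeu-like (21.3 and 7.67 CPM) and mNeu-like cells (17.8 and 7.87 CPM), were not above plasma cell-like cells, which held 13.7 and 5.94 CPM from 11 and 3 UMIs. A *Kit* UMI was seen in 90.4% of Ctrl and 84.9% of cKO HSC/MPP-like cells. With each cell thinned to 1000 UMIs the shares were 24.4% and 21.4%, against 1.32% and 3.03% in plasma cell-like cells (8.86% and 8.82% unthinned). The bead enrichment acts on the product of *Kit*, so the number of *Kit*-bearing cells in these mixtures was set in part by the beads, and their yield in each library was not given in the sources used here.

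*Flt3* (ENSMUSG00000042817, chr5:147330741-147400489, - strand) marks multipotent and lymphoid progenitors and dendritic cell precursors. It stood at 123 CPM (113 to 133) in Ctrl and 74.7 CPM (62.9 to 88.2) in cKO HSC/MPP-like cells. Monocyte-like cells held 32.2 and 17.1 CPM and ProMon-like cells 28.7 and 11.2 CPM. In ProNeu-like cells the level was 1.70 and 1.36 CPM, and the later neutrophil classes had 9 to 11 UMIs in Ctrl and 2 to 3 in cKO. MEP-like cells had 17 UMIs in Ctrl and 0 in cKO. *Flt3* thus divided the early progenitors from the neutrophil path within each library. The highest Ctrl level over all 17 classes with at least 50 cells was that of plasmacytoid dendritic (pDC)-like cells, 187 CPM (143 to 240) over 85 cells, whose median share of monocyte markers (0.581%) was close to that of their own markers (0.621%). The 10 pDC-like cKO cells were too few for the comparison and held 15 UMIs. Plasma cell-like cells held 0 (Ctrl) and 4 (cKO) UMIs of *Flt3*. The antisense transcript *Gm26597* overlaps the gene.

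Within the HSC/MPP-like gate, *Flt3* differed between subsets defined by other genes. Ctrl cells with a UMI of the stem cell genes *Hlf*, *Mecom* or *Procr* and none of the lymphoid-primed genes *Dntt* or *Satb1* held 50.1 CPM (38.5 to 64.1; 134 cells). Ctrl cells with the lymphoid-primed genes only held 165 CPM (135 to 200; 48 cells), and those with both held 172 CPM (156 to 190; 163 cells). The 41 Ctrl cells with neither held 7.26 CPM (1.5 to 21.2; 3 UMIs). *Kit* had the opposite order, at 325 CPM (294 to 358) with the stem cell genes only and 222 CPM (187 to 262) with the lymphoid-primed genes only. In cKO, *Flt3* was 54.9 CPM (38.0 to 76.8) in 51 cells with the stem cell genes only, 97.8 CPM (59.8 to 151) in 11 cells with the lymphoid-primed genes only and 87.9 CPM (69.3 to 110.0) in 47 cells with both. *Kit* there was 241, 103 and 153 CPM. The *Flt3* level in the cells with the stem cell genes only could not be told apart between the libraries, while in the cells with both it was higher in Ctrl than in cKO beyond counting error. The cells with neither went the other way, with 53.95 CPM (25.9 to 99.2) from 10 UMIs in 17 cKO cells, above the Ctrl interval. A cell without a UMI of these genes may still express them, and the subsets differ in depth, with medians of 8337 and 12018 UMIs in the first and the last of the named Ctrl subsets.

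*Csf1r* (ENSMUSG00000024621, chromosome 18, + strand) directs monocyte and macrophage development. Monocyte-like cells held 277 CPM (261 to 293) in Ctrl and 339 CPM (316 to 363) in cKO, and ProMon-like cells 147 and 182 CPM. Ctrl macrophage-like cells, with a median of 884 UMIs, held 272 CPM (201 to 359; 113 cells), level with monocyte-like cells. On the neutrophil path *Csf1r* was low: 17.8 and 17.5 CPM in ProNeu-like, 3.64 and 1.25 CPM in PreNeu-like, 6.53 and 3.45 CPM in imNeu-like, and 49.8 and 43.1 CPM in mNeu-like cells. HSC/MPP-like cells held 21.6 and 16.6 CPM, and plasma cell-like cells 16.2 and 1.98 CPM. After thinning, 27.3% of Ctrl and 28.5% of cKO monocyte-like cells had a *Csf1r* UMI, against 4.99% and 5.48% of mNeu-like and 2.63% and 0% of plasma cell-like cells (8.86% and 2.94% unthinned). The protein-coding gene *Hmgxb3* overlaps *Csf1r* on the other strand.

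*Csf2ra* (ENSMUSG00000059326, chr19:61223957-61228429, - strand), the chain that makes the shared receptor specific for GM-CSF, was higher in CPM at later stages of the neutrophil path. In Ctrl it went from 57.2 CPM in HSC/MPP-like through 114 CPM in ProNeu-like, 153 CPM in PreNeu-like and 245 CPM in imNeu-like to 392 CPM (376 to 409) in mNeu-like cells. In cKO the same classes held 39.0, 102, 101, 171 and 241 CPM (232 to 250). UMIs per cell did not rise from ProNeu-like cells on. They were 0.679, 1.96, 1.68, 1.47 and 1.18 over these classes in Ctrl, and 0.579, 2.07, 2.06, 2.07 and 1.67 in cKO. The median Ctrl depth was 17137 UMIs in ProNeu-like and 2642 UMIs in mNeu-like cells, so the higher CPM came with shallower cells. ProMon-like cells held 206 and 236 CPM and monocyte-like cells 186 and 199 CPM. The mNeu-like lead in CPM was beyond counting error in Ctrl, while in cKO the level could not be told from that of ProMon-like cells. HSC/MPP-like and MEP-like cells (29.4 and 14.8 CPM) were not above plasma cell-like cells (40.0 and 25.7 CPM).

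*Il3ra* (ENSMUSG00000068758, chr14:14346275-14356011, + strand), the chain specific for IL-3, had another pattern. Its highest Ctrl level was in basophil/mast-like cells, where it stood at 105 CPM (81.6 to 132) over 70 cells, with 146 CPM (103 to 200) over 20 cKO cells. Monocyte-like cells held 53.1 and 47.5 CPM, ProMon-like cells 50.02 and 64.7 CPM, and HSC/MPP-like cells 34.3 and 34.7 CPM. The level then went down along the neutrophil path, with 20.1 and 26.1 CPM in ProNeu-like, 14.1 and 18.3 CPM in PreNeu-like, 9.65 and 14.0 CPM in imNeu-like and 9.70 and 11.2 CPM in mNeu-like cells. These 4 classes were not above plasma cell-like cells (8.75 and 11.9 CPM) by both measures in either library, and MEP-like cells (3.39 and 3.54 CPM) were not either. From HSC/MPP-like to mNeu-like cells the CPM of *Csf2ra* was thus higher and that of *Il3ra* lower, down to the plasma cell-like level. ProMon-like and monocyte-like cells, first and second in either order, overlapped in their intervals. *Gm48860*, an antisense transcript, overlaps *Il3ra*.

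The common beta chain *Csf2rb* (ENSMUSG00000071713, chr15:78325752-78353847, + strand) and *Csf2rb2* (ENSMUSG00000071714, chr15:78282507-78305721, - strand) are neighbours on chromosome 15, with 20030 bases between them, and are near copies. Their coding sequences of 2688 and 2634 bases were 95.3% identical over 2628 aligned bases. Of all 90-base windows of the coding sequence, 12.6% of those of *Csf2rb* and 12.8% of those of *Csf2rb2* occur in the other gene's transcript, where a read could not be assigned. In the last 500 bases of the transcripts, where a 3′ kit places most reads, 0 of 411 windows were shared. The stretch below, taken from the GRCm38 reference, is shown because it lets the copies be compared base by base. Each line is coding sequence read 5′ to 3′ on the gene's own strand, and capitals mark the 5 bases that differ.

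Csf2rb, chr15:78349018-78349107, + strand: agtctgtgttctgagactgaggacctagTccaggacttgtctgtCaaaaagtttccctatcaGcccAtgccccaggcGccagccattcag
Csf2rb2, chr15:78284341-78284430, - strand: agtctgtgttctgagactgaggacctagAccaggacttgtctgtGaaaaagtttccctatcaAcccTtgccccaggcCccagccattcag

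The 2 beta chains had the same leading classes by CPM in Ctrl, but the UMIs of 1 per UMI of the other differed between classes. *Csf2rb* was detected across the myeloid classes, with 232 CPM (220 to 245) in Ctrl and 322 CPM (311 to 333) in cKO mNeu-like cells, 128 and 211 CPM in monocyte-like cells and 119 and 153 CPM in imNeu-like cells. ProMon-like cells held 111 and 180 CPM, PreNeu-like cells 106 and 146 CPM, ProNeu-like cells 70.2 and 81.6 CPM, and HSC/MPP-like cells 55.9 and 78.5 CPM. MEP-like cells held 8.54 and 6.36 CPM, below the 32.5 and 25.7 CPM of plasma cell-like cells. *Csf2rb2* stood at 22.8 and 40.3 CPM in mNeu-like, 17.7 and 27.5 CPM in imNeu-like, 9.70 and 19.1 CPM in PreNeu-like, 19.4 and 25.7 CPM in monocyte-like and 16.3 and 29.0 CPM in ProMon-like cells. It held 5.68 and 16.6 CPM in HSC/MPP-like and 2.14 and 3.503 CPM in ProNeu-like cells, and 9 and 2 UMIs (1.22 and 0.707 CPM) in MEP-like cells. Plasma cell-like cells had 0 UMIs of *Csf2rb2* in either library, which allows up to 3 UMIs. By UMIs per cell, mNeu-like cells did not lead. For *Csf2rb* they held 0.696 (Ctrl) and 2.24 (cKO) UMIs per cell, against 1.53 and 4.02 in ProMon-like cells. For *Csf2rb2* the values were 0.0684 and 0.280, against 0.225 and 0.647. The highest Ctrl levels of both chains lay outside the 8 classes, but for *Csf2rb* their intervals overlapped that of mNeu-like cells. pDC-like cells held 263 CPM of *Csf2rb* and 165 CPM of *Csf2rb2*, and basophil/mast-like cells 260 and 68.8 CPM. The UMIs of *Csf2rb2* per UMI of *Csf2rb* were 0.628 (0.438 to 0.893) in Ctrl pDC-like and 0.264 (0.187 to 0.368) in Ctrl basophil/mast-like cells, against 0.0305 in ProNeu-like to 0.151 in monocyte-like cells among the 8 classes.

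*Csf3r* (ENSMUSG00000028859, chr4:126024550-126044440, + strand), the receptor for the main neutrophil growth factor, was concentrated in mNeu-like cells. These held 1275 CPM (1245 to 1305) in Ctrl and 1109 CPM (1089 to 1129) in cKO. The next class, imNeu-like, held 183 and 169 CPM, so the step to mNeu-like cells was the widest in the path. ProNeu-like cells held 129 and 109 CPM, PreNeu-like cells 123 and 84.3 CPM, monocyte-like cells 106 and 113 CPM, HSC/MPP-like cells 87.4 and 84.4 CPM, and ProMon-like cells 83.8 and 69.3 CPM. Plasma cell-like cells held 53.7 and 43.6 CPM, and MEP-like cells (33.5 and 13.8 CPM) lay below that. Of the *Csf3r* UMIs of a library, 42.4% (Ctrl) and 65.4% (cKO) came from mNeu-like cells, while unnamed cells held 21.5% and 6.98%. After thinning, 64.6% (62.4 to 66.9) of Ctrl and 58.5% (56.0 to 61.0) of cKO mNeu-like cells had a *Csf3r* UMI, against 6.58% and 12.1% of plasma cell-like cells. Without thinning the shares were 89.3% and 95.4%, in the opposite order between the libraries.

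*Il6ra* (ENSMUSG00000027947, chr3:89864059-89913196, - strand) was highest in monocyte-like cells, at 272 CPM (257 to 289) in Ctrl and 200 CPM (182 to 219) in cKO. ProMon-like cells held 167 and 144 CPM, and mNeu-like cells 113 and 99.2 CPM, above plasma cell-like cells by both measures in cKO but not in Ctrl. Below them came imNeu-like (43.1 and 34.2 CPM), HSC/MPP-like (38.2 and 16.0 CPM), ProNeu-like (26.9 and 17.4 CPM), PreNeu-like (23.5 and 12.7 CPM) and MEP-like cells (5.28 and 1.41 CPM), none of them above plasma cell-like cells (30 and 11.9 CPM). *Il6st*, which encodes gp130 and completes the receptor, had its highest levels in the same monocyte classes, with 101 and 87.5 CPM in ProMon-like and 94.8 and 73.6 CPM in monocyte-like cells. In mNeu-like cells *Il6st* had 8 UMIs in Ctrl and 10 in cKO, beside 630 and 1071 of *Il6ra*. *Gm42809*, an antisense transcript, overlaps *Il6ra*. The deposited files do not state whether counting used strand, so UMIs of a member and of its antisense partner cannot be told apart.

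The highest class by CPM was mostly alike in the libraries. For 8 of the 9 genes the highest of the 8 classes was the same in Ctrl and cKO, and for *Il3ra* the first and second places changed within overlapping intervals. The mNeu-like lead also lay within overlapping intervals for *Csf2rb2* in Ctrl (22.8 CPM, against 19.4 in monocyte-like cells). The same held for *Csf2ra* in cKO (241 CPM, against 236 in ProMon-like cells). Lower places differed more. For *Csf2ra*, imNeu-like cells came next after mNeu-like cells in Ctrl, but below ProMon-like and monocyte-like cells in cKO. By the share of cells with a UMI, the highest class differed from that by CPM in 10 gene and library pairs without thinning and in 2 after it.

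**Figure D2:**
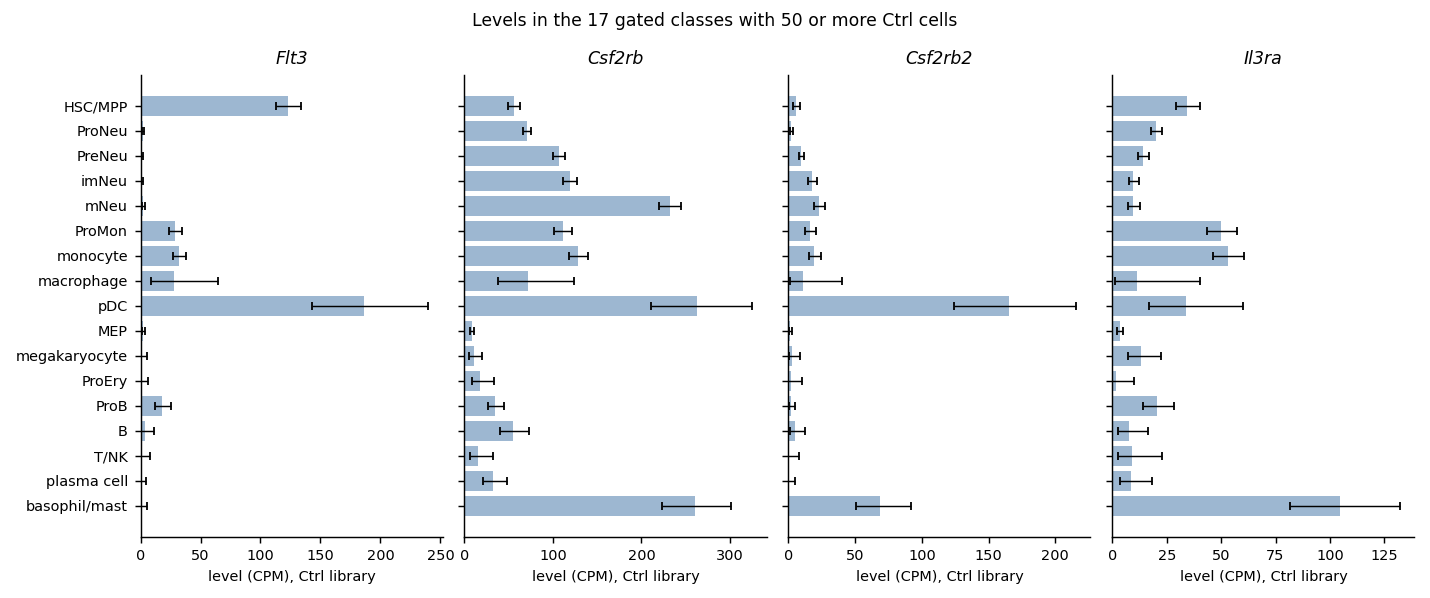
Levels of receptor genes in the Ctrl library over the 17 classes with at least 50 cells, as CPM. The classes outside the neutrophil and monocyte paths carry the highest Ctrl levels of *Flt3* (187 CPM), *Csf2rb* (263 CPM) and *Csf2rb2* (165 CPM) in pDC-like cells and of *Il3ra* (105 CPM) in basophil/mast-like cells. For *Csf2rb* the pDC-like interval overlaps that of mNeu-like cells.

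ProNeu-like cells could be divided by *Cd34*, a surface marker of early progenitors. With a *Cd34* UMI (196 Ctrl and 117 cKO cells), *Kit* stood at 138 and 74.0 CPM, and without (589 and 572 cells) at 101 and 53.0 CPM. *Csf1r* differed more, with 30.9 and 34.0 CPM in the cells with *Cd34* against 11.5 and 11.2 CPM in those without. *Csf3r* ran the other way, with 95.7 and 84.4 CPM against 145 and 118 CPM, as did *Csf2ra*, with 86.8 and 77.6 CPM against 127 and 111 CPM. Of the *Flt3* UMIs of ProNeu-like cells, all 19 in cKO lay in cells with *Cd34*. In Ctrl 12 lay in such cells and 11 in cells without. The *Flt3* level of ProNeu-like cells was not above plasma cell-like cells in either library. The cells with *Cd34* were deeper, with medians of 23030 UMIs (Ctrl) and 35611 UMIs (cKO) against 15597 and 17702.5 UMIs.

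The study compares cKO with Ctrl marrow. That comparison was made as the log2 ratio of CPM, cKO over Ctrl, within each class, for genes with at least 20 UMIs over both libraries, and a ratio beyond 2-fold in either direction was counted. Of 72 pairs of a receptor gene and a class, 67 were measured, and 13 lay beyond 2-fold, 12 of them lower and 1 higher in cKO. In HSC/MPP-like cells 2 of 9 members did, where 5.09% of all 10720 genes measured did. In ProNeu-like cells it was 0 of 9 (5.05% of all genes), in PreNeu-like cells 2 of 8 (7.33%), in imNeu-like cells 1 of 8 (15.7%) and in mNeu-like cells 1 of 8 (22%). In ProMon-like cells it was 2 of 9 (7.2%), in monocyte-like cells 1 of 9 (10.1%) and in MEP-like cells 4 of 7 (8.84%). The shares of members thus lay near or below those of all genes in ProNeu-like, imNeu-like, mNeu-like and monocyte-like cells, and above them in HSC/MPP-like, PreNeu-like, ProMon-like and MEP-like cells. Some of the members counted there were not above plasma cell-like cells in either library, namely *Csf1r*, *Csf3r* and *Il6ra* in MEP-like, *Csf1r* in PreNeu-like and *Il6ra* in HSC/MPP-like cells.

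The median ratio over all genes was itself below 0 in each class, from -0.11 in HSC/MPP-like to -0.48 in mNeu-like cells. Over the members it was -1.04 in MEP-like, -0.57 in PreNeu-like, -0.39 in HSC/MPP-like, -0.22 in imNeu-like, -0.20 in mNeu-like, -0.16 in ProNeu-like, 0.08 in monocyte-like and 0.20 in ProMon-like cells. Of the 67 measured pairs, 41 were lower and 26 higher in cKO. Relative to the all-gene median of their class 31 were lower and 36 higher, and the calls beyond 2-fold became 9 lower and 4 higher. Over all genes the same centring moved the share of calls that were higher in cKO from a range of 6.30% to 27.3% over the 8 classes to one of 24.9% to 40.0%.

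**Figure D3:**
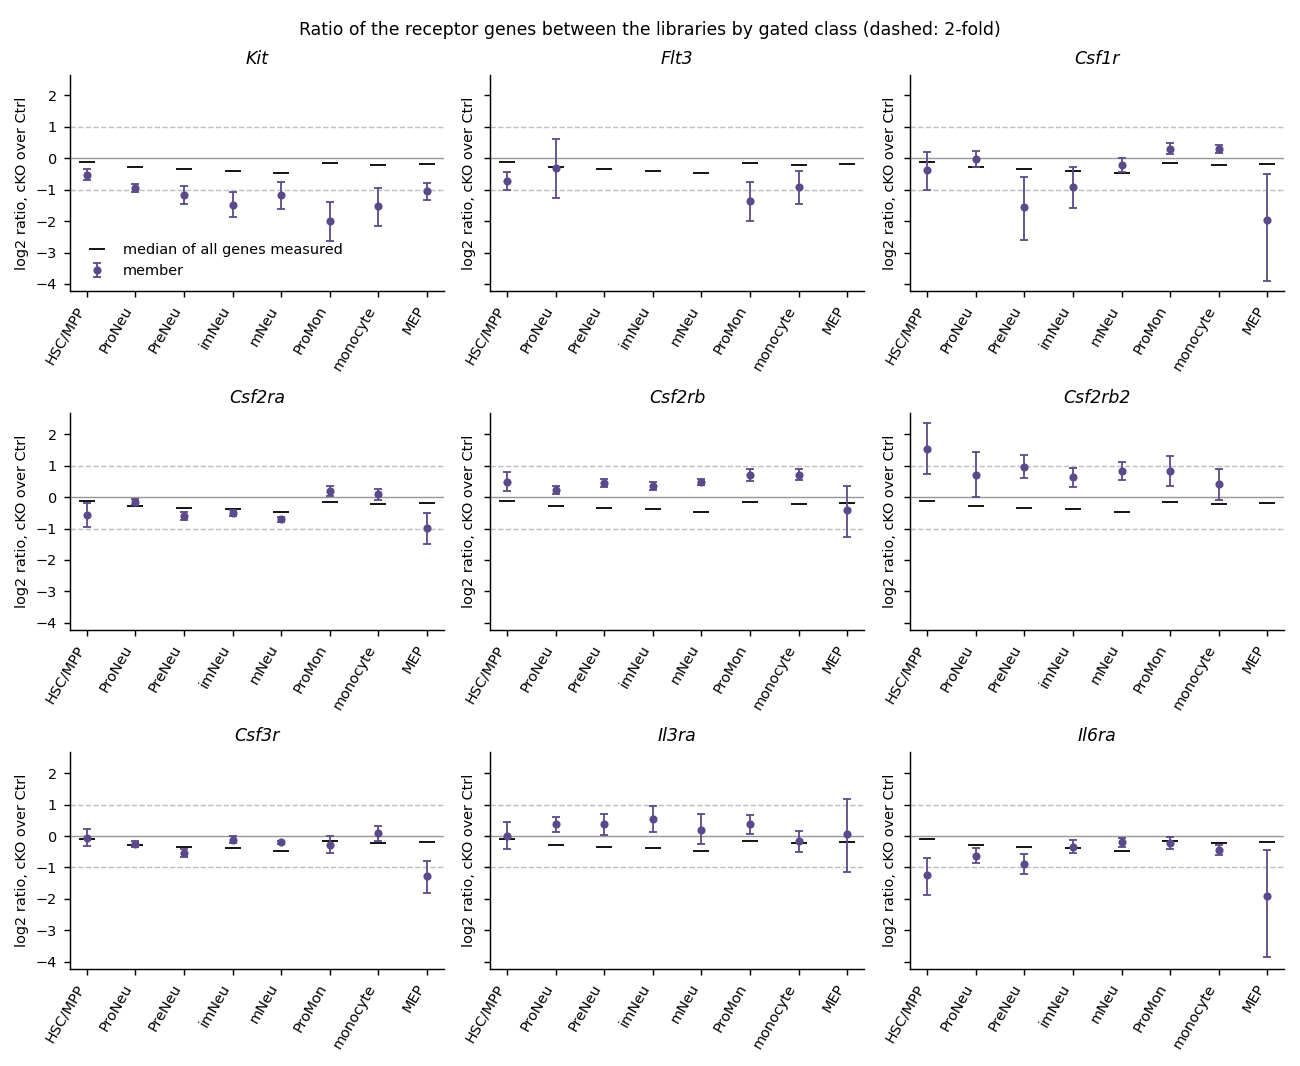
Log2 ratio of CPM, cKO over Ctrl (vertical), of each receptor gene in the 8 classes (horizontal) with exact 95% intervals for counting error. Dashed lines mark 2-fold, black ticks the median over all genes of the class, and a class without a point had fewer than 20 UMIs. *Kit* was below 0 in 8 of 8 classes and *Csf2rb* above 0 in 7 of 8, and both counts held relative to the black ticks.

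*Kit* was lower in cKO in all 8 classes, with 8 of 8 intervals below 0 and 6 ratios beyond 2-fold. In the classes where *Kit* was highest, the log2 ratio was -1.04 (-1.31 to -0.78) for MEP-like, -0.94 (-1.07 to -0.82) for ProNeu-like and -0.52 (-0.69 to -0.35) for HSC/MPP-like cells. It was -1.17 in PreNeu-like, -1.47 in imNeu-like, -1.18 in mNeu-like, -1.99 in ProMon-like and -1.53 in monocyte-like cells. Relative to the all-gene median *Kit* remained lower in 8 of 8, and beyond 2-fold in imNeu-like (-1.08), ProMon-like (-1.825) and monocyte-like cells (-1.30). In PreNeu-like, ProMon-like and monocyte-like cells *Kit* was above plasma cell-like cells by both measures in Ctrl but not in cKO. Of the 6 classes beyond 2-fold before centring, MEP-like cells alone stood above them in both libraries. *Kit* per MEP-like cell was 1.93 UMIs in Ctrl and 1.76 in cKO, in cells with median depths of 15229 and 32187 UMIs. In imNeu-like and mNeu-like cells, where the level was not above plasma cell-like cells, the ratio compares values near that background. The background was 13.7 CPM (6.86 to 24.6) in Ctrl and 5.94 CPM (1.23 to 17.4) in cKO, with overlapping intervals. In cKO ProMon-like cells 10 of the 27 *Kit* UMIs came from 1 cell. *Kit* per mNeu-like cell was 0.0533 UMIs in Ctrl and 0.0547 in cKO, so the lower CPM there came with like UMIs per cell in deeper cells. Over all kept cells the level was 77.2 CPM in Ctrl and 31.8 CPM in cKO, a value that also holds the smaller number of HSC/MPP-like and MEP-like cells. The 8 markers of HSC/MPP-like cells were also lower in cKO in other classes, with 8 of 8 lower in PreNeu-like, imNeu-like and ProMon-like, 7 of 8 in ProNeu-like and mNeu-like, 6 of 8 in monocyte-like and 5 of 8 in MEP-like cells. Their summed share of UMIs in these 7 classes ran from 0.00259% to 0.0207% in Ctrl and from 0.000853% to 0.0171% in cKO, and *Mecom* and *Procr* were at 0 in cKO imNeu-like and ProMon-like cells. The part of these markers, of the bead enrichment and of free RNA in the *Kit* ratios was not tested.

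*Flt3* was lower in cKO in the 4 classes where it was measured, and remained so relative to the all-gene median. The log2 ratio was -0.72 (-0.99 to -0.45) in HSC/MPP-like, -1.35 (-1.99 to -0.76) in ProMon-like and -0.91 (-1.46 to -0.39) in monocyte-like cells. In ProNeu-like cells, with 23 and 19 UMIs, it was -0.32 (-1.28 to 0.62). Of these 4 classes, HSC/MPP-like cells alone stood above plasma cell-like cells by both measures in both libraries. ProMon-like and monocyte-like cells did so in Ctrl only, and ProNeu-like cells in neither. *Csf1r* had no shared direction. It was higher in cKO in ProMon-like (0.31, 0.14 to 0.48) and monocyte-like cells (0.29, 0.16 to 0.43), the classes that express it, and this held relative to the all-gene median. It was lower in the other 6, beyond 2-fold in PreNeu-like (33 and 13 UMIs) and MEP-like cells (41 and 4 UMIs), and 2 of these 6, ProNeu-like and mNeu-like, turned higher relative to the median. In Ctrl none of these 6 stood above plasma cell-like cells by both measures, and the plasma cell-like level was itself lower in cKO (16.2 and 1.98 CPM). With that level subtracted per cell, *Csf1r* was higher in cKO in 4 of the 4 classes left, at 0.91 in HSC/MPP-like and 0.96 in ProNeu-like cells beside both monocyte classes. Within the monocyte classes *Kit* and *Flt3* thus lay below 0 and *Csf1r* above it. Marker shares in these classes also differed between the libraries. In monocyte-like cells, monocyte markers made up 0.616% of UMIs in Ctrl and 0.746% in cKO, and ProNeu-like markers 0.709% and 0.456%. In ProMon-like cells, monocyte markers made up 0.494% and 0.557%, and ProNeu-like markers 0.648% and 0.606%. The part of such differences in makeup in the ratios of these genes was not tested.

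The chains of the GM-CSF and IL-3 receptors differed in direction. *Csf2ra* was lower in cKO in 6 of 8 classes, with a log2 ratio of -0.70 (-0.79 to -0.62) in mNeu-like, -0.52 (-0.61 to -0.42) in imNeu-like, -0.60 (-0.71 to -0.48) in PreNeu-like and -0.16 (-0.26 to -0.05) in ProNeu-like cells. Relative to the all-gene median it was lower in 5, ProNeu-like cells having turned to 0.13, and the mNeu-like value became -0.22. It was higher in ProMon-like cells at 0.20 (0.05 to 0.35), and 0.09 (-0.08 to 0.26) in monocyte-like cells. *Csf2rb* was higher in 7 of 8 classes, with all 7 intervals above 0, and relative to the median as well. Its log2 ratio was 0.47 (0.38 to 0.57) in mNeu-like, 0.36 in imNeu-like, 0.46 in PreNeu-like, 0.22 in ProNeu-like, 0.49 in HSC/MPP-like, 0.70 in ProMon-like and 0.72 (0.54 to 0.90) in monocyte-like cells. None of these lay beyond 2-fold, and the MEP-like value, from 63 and 18 UMIs, was -0.42 (-1.27 to 0.35).

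*Csf2rb2* was higher in cKO in the 7 classes where it was measured, before and after centring, with 6 intervals above 0. The ratio was 1.54 (0.74 to 2.35) in HSC/MPP-like cells, from 26 UMIs in 386 Ctrl cells and 31 UMIs in 126 cKO cells, and this was the only member beyond 2-fold upwards. It was 0.97 in PreNeu-like, 0.82 in mNeu-like, 0.83 in ProMon-like, 0.71 in ProNeu-like, 0.40 in monocyte-like and 0.63 in imNeu-like cells. In the 20 cKO basophil/mast-like cells *Csf2rb2* had 9 UMIs (34.6 CPM, 15.8 to 65.6), against 68.8 CPM (50.3 to 91.7) in Ctrl with overlapping intervals, while *Csf2rb* stood at 430 CPM (354 to 518) against 260 CPM (223 to 302). *Il3ra* was higher in 7 of 8 classes, with 4 intervals above 0, at 0.54 in imNeu-like and 0.37 in ProNeu-like, PreNeu-like and ProMon-like cells. The monocyte-like value of -0.16 (-0.50 to 0.18) turned to 0.07 relative to the median. Of the 4 classes with an interval above 0, ProMon-like cells alone stood above plasma cell-like cells, whose level was itself higher in cKO. With that level subtracted per cell, *Il3ra* was higher in 3 and lower in 2 of the 5 classes left, HSC/MPP-like cells having turned to -0.23.

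UMIs of *Csf2rb* per UMI of *Csf2ra* within the same cells do not depend on the total that CPM divides by. In mNeu-like cells this ratio was 0.591 (0.551 to 0.634) in Ctrl and 1.34 (1.27 to 1.41) in cKO, a log2 change of 1.18 (1.05 to 1.30), where the interval of the change uses a normal approximation on the log counts. It moved from 0.488 to 0.897 in imNeu-like, from 0.693 to 1.44 in PreNeu-like, from 0.618 to 0.801 in ProNeu-like and from 0.977 to 2.01 in HSC/MPP-like cells. In ProMon-like cells it went from 0.539 to 0.764 and in monocyte-like cells from 0.689 to 1.06. The ratio was thus higher in cKO in these 7 classes, each with an interval of the change above 0. In HSC/MPP-like cells its denominator, *Csf2ra*, was not above plasma cell-like cells by both measures in either library. In MEP-like cells the ratio was 0.290 and 0.429, with an interval that held 0 (-0.33 to 1.46). Over all kept cells it was 0.612 (0.594 to 0.631) and 1.09 (1.06 to 1.12). Outside the 8 classes, basophil/mast-like cells had the ratio most in favour of the beta chain in Ctrl among classes with 50 cells, 4.35 (3.07 to 6.30), and 10.2 (5.48 to 21.0) in cKO. With each cell thinned to 1000 UMIs, 7.07% of Ctrl and 6.32% of cKO mNeu-like cells held UMIs of both chains.

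**Figure D4:**
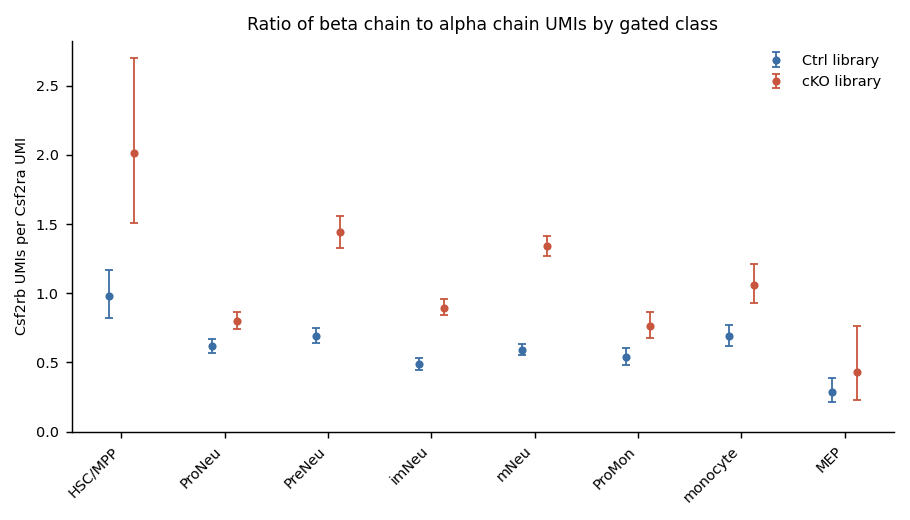
UMIs of *Csf2rb* per UMI of *Csf2ra* (vertical) in the 8 classes (horizontal) for Ctrl and cKO, with exact 95% intervals for counting error. The cKO point lies above the Ctrl point in each class, from 0.591 to 1.34 in mNeu-like cells, and the MEP-like intervals overlap.

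*Csf3r* was lower in cKO in 7 of 8 classes, but 3 lower and 5 higher relative to the all-gene median, so it had no direction of its own. Its log2 ratio was -0.20 (-0.24 to -0.16) in mNeu-like cells and 0.28 after centring. The mNeu-like direction also depended on depth. It turned to higher in cKO in cells of 3000 to 20000 UMIs only, and under the higher of the floors tried on UMIs per cell. UMIs per mNeu-like cell were 3.82 in Ctrl and 7.70 in cKO, in cells with median depths of 2642 and 6494 UMIs. In PreNeu-like cells it was -0.55 (-0.68 to -0.42), and lower after centring too. *Il6ra* was lower in 8 of 8 classes, with 8 intervals below 0, and in 6 of 8 relative to the median, where imNeu-like and mNeu-like cells turned to 0.06 and 0.29. The ratio was -0.45 (-0.60 to -0.29) in monocyte-like and -0.21 (-0.40 to -0.03) in ProMon-like cells, where it was highest, and -1.26 (-1.87 to -0.69) in HSC/MPP-like cells, from 175 and 30 UMIs. *Il6ra* in plasma cell-like cells stood at 30 CPM (19.2 to 44.6) in Ctrl and 11.9 CPM (4.36 to 25.9) in cKO, with overlapping intervals. The part of this background in the HSC/MPP-like ratio was not tested.

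Unnamed cells enter none of these classes and gave values of their own. *Kit* stood at 86.8 CPM in Ctrl and 41.3 CPM in cKO there, *Flt3* at 29.5 and 16.3 CPM and *Csf2ra* at 169 and 132 CPM. *Csf2rb* stood at 97.3 and 124 CPM and *Csf2rb2* at 10.2 and 17.1 CPM, so both beta chains were higher and the other 3 lower in cKO among these shallow cells as well. *Csf1r* was 42.6 and 24.5 CPM, *Csf3r* 401 and 206 CPM, *Il6ra* 60.7 and 32.1 CPM and *Il3ra* 24.2 and 25.5 CPM. The makeup of the unnamed cells may differ between the libraries, and its part in these values was not tested.

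The upstream sequences of the members available from RefSeq (build GRCm38.p6) are shown for *Kit*, *Flt3*, *Il6ra* and *Csf2rb2*, the first 3 for genes that were lower in cKO and the last for the gene with the largest upward ratio. Each ends at the base before the annotated gene and is read 5′ to 3′ on the gene's strand, and capitals mark matches on either strand to letters of 5 blood factor motifs. Of 32851 promoter windows of 250 bases, GGAAGT for ETS factors occurs in 19.7%, TGTGGT for RUNX in 14%, TTGCNNAA for C/EBP in 9.56%, GATAAG for GATA factors in 6.55% and TAACNG for MYB in 19.8%.

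Kit, chr5:75574737-75574915, + strand: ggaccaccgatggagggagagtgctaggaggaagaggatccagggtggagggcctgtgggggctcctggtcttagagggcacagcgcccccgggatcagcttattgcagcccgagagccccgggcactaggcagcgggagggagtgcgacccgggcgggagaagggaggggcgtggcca
Flt3, chr5:147400490-147400739, - strand: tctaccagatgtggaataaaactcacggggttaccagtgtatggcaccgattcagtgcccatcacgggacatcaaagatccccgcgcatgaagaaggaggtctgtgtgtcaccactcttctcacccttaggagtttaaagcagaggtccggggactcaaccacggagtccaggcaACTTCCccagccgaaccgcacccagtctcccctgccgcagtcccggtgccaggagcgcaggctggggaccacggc
Il6ra, chr3:89913197-89913446, - strand: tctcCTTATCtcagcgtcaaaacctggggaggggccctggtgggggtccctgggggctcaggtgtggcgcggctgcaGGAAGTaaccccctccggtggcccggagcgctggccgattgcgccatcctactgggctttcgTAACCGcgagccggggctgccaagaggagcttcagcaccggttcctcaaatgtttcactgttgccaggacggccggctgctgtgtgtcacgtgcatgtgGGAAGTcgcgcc
Csf2rb2, chr15:78305722-78305971, - strand: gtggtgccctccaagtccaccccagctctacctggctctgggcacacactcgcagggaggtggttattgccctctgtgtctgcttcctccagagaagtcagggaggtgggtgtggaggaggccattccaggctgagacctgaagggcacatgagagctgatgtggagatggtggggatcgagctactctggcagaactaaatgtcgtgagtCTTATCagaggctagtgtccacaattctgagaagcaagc

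*Flt3* held 1 ETS match, *Il6ra* 2 ETS, 1 GATA and 1 MYB match, *Csf2rb2* 1 GATA match, and *Kit* none of the 5. The windows of *Csf2ra* and *Csf3r* held none either. Of the 3 lower genes shown, *Flt3* and *Il6ra* thus shared the ETS letters, and *Kit* lacked them in a shorter window of 179 bases. A match is a description of the letters and not of a bound site.

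Around the receptors, a list of 25 genes was measured: 8 ligands, *Il6st*, 5 other blood cytokine receptors and 11 genes that act just inside the membrane. The list was chosen with earlier results of these data known. The ligands were rare in these libraries. *Il3* had 0 UMIs in both, *Csf3* 1 and 0, *Csf2* 7 and 1, *Il34* 2 and 0, *Kitl* 26 and 4, and *Il6* 31 and 18. *Flt3l* (509 and 333 UMIs) and *Csf1* (321 and 211 UMIs) were the most frequent, and *Csf1*, the M-CSF gene, was highest in Ctrl basophil/mast-like cells at 117 CPM. Several of these ligands are known as products of stromal cells, which are not among the classes named here. Of the other receptors, *Epor*, the erythropoietin receptor, stood at 102 and 116 CPM in MEP-like cells. It did not share the lower level of *Kit* in the same cells, with a log2 ratio of 0.19 (-0.01 to 0.38).

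Of 113 measured pairs of a listed gene and a class, 4 were lower and 6 higher in cKO beyond 2-fold, with a median log2 ratio of -0.22. Of all genes measured in a class, 5.05% (ProNeu-like) to 22% (mNeu-like) lay beyond 2-fold, a range that holds the share of this list. *Socs3*, which cytokines induce and which damps signalling through gp130 and the G-CSF receptor, made up 5 of the 6 higher ones and was measured in 5 classes. It went from 21.7 to 54.0 CPM in mNeu-like cells (121 and 583 UMIs, log2 ratio 1.31, 1.03 to 1.61), from 6.79 to 18.4 CPM in monocyte-like cells (1.44, 0.72 to 2.18) and from 5.68 to 23.5 CPM in HSC/MPP-like cells (2.05, 1.32 to 2.81). In imNeu-like (5 and 22 UMIs) and ProNeu-like cells (6 and 14 UMIs) the intervals held 0. The sixth was *Cish*, a related inhibitor, in MEP-like cells, with 10 and 30 UMIs. Of the 4 lower pairs, 2 were *Il7r*, in HSC/MPP-like (26 and 4 UMIs) and ProMon-like cells (28 and 1). The HSC/MPP-like interval held 0 (-3.39 to 0.12). *Epor* (21 and 2) and *Il2rg* (50 and 23) were 1 each, both in mNeu-like cells. The listed genes were not set against plasma cell-like cells, and the part of free RNA in their ratios was not tested. *Jak2*, the kinase bound by the common beta chain and by the erythropoietin receptor, was lower in 8 of 8 classes, from -0.82 in ProNeu-like to -0.29 in ProMon-like cells. Relative to the all-gene median it was higher in 2 of these. *Ptpn11*, *Cbl*, *Jak1* and *Inpp5d* were below 0 in 8 of 8 as well, and none of them was beyond 2-fold. Relative to the all-gene median *Cbl* was lower in 6 of 8, *Ptpn11* in 5, *Jak1* in 3 and *Inpp5d* in 2, and higher in the rest.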

How the data were processed

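Per the labels and the study's methods, the authors made counts with Cell Ranger 5.0.0 (submitters' processing notes) on GRCm38 and deposited them as raw, whole-number counts of UMIs per gene and barcode, neither normalized nor filtered on genes or mitochondrial share. The limits of the methods, 200 to 9000 genes per cell and a mitochondrial share of no more than 30%, were applied here and left out 255 Ctrl and 154 cKO barcodes. No doublet caller was run. Of the named cells, 138 Ctrl and 41 cKO cells had a second class with a score of at least 0.5 of the first.

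A cell took 1 of 17 marker panels (126 markers), split into 19 classes, when at least 3 markers of a panel had a UMI, their summed share was at least 2 times that over all cells and the Poisson likelihood score of that excess was at least 10, taking the panel with the highest score. Secondary granule and monocyte cells were split at 0.5% of UMIs from 12 cell-cycle genes. The gate favours deep cells. UMIs were summed per class and library and given as CPM with exact Poisson intervals. Ratios carry intervals from the exact binomial interval of both sums, for genes with at least 20 UMIs, and 2-fold was the threshold counted. Shares of cells carry exact Clopper-Pearson intervals. A count of 0 allows up to 3 counts.

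The members, the 25 pathway genes and the markers were chosen with earlier results of these data known. All 9 members are named in all 8 classes with at least 50 cells per library, and for each member the 3 genes most like it, of which some, like 1 pathway gene, are not reported here. *Map4k4* was the check of the labels. Loci come from GENCODE vM21 and promoter windows from RefSeq, which held 7 of the 9 members and none for *Csf1r* and *Csf2rb*. The *Il3ra* window had 30 bases before its first transcript and is not shown.

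The alternatives were floors on genes and UMIs, a mitochondrial ceiling, stricter and relative gates, other denominators, means of per-cell proportions, centred ratios, other floors per gene and shares of cells. Added after seeing the data were a cell-cycle split at 0.3%, cells of 3000 to 20000 UMIs only, and UMIs per cell less the plasma cell-like level. The study's tests over cells were not run, since cells are not replicates, and its other experiments were not analysed here. The calculations were checked on simulated counts. Python 3.11.15, numpy 2.4.6, scipy 1.17.1, pandas 2.3.3 and matplotlib 3.10.9 were used.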

Additional observations from a re-analysis of the deposited data

Results flagged for a closer look

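The log2 ratio (cKO over Ctrl) of *Csf1r* was -1.97 in MEP-like cells and 0.31 in ProMon-like cells, opposite signs with intervals clear of 0 on both sides. That of *Csf2ra* was -0.99 in MEP-like and 0.20 in ProMon-like cells in the same way. With 1 library per condition the difference between the classes was not tested, and in MEP-like cells neither gene stood above plasma cell-like cells.

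The barcodes left out by the filters on genes and mitochondrial share, in which no comparison was made, held member UMIs above the 3 that a count of 0 allows. In the 255 Ctrl barcodes these were 28 UMIs of *Csf3r*, 21 of *Csf2ra*, 14 of *Kit*, 11 of *Csf2rb*, 10 of *Csf1r* and 4 of *Il6ra*. In the 154 cKO barcodes there were 17 of *Csf3r*, 14 of *Csf2ra*, 5 of *Kit* and 5 of *Csf2rb*.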

How the results depend on the processing

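No paired analysis was possible because there is 1 library per condition, and for the same reason no replicate could be left out. The number of members with the same highest class in both libraries was 8 and lay between 6, with mitochondrial, ribosomal, haemoglobin and immunoglobulin genes left out of the total, and 8 in the other settings but for 7 under a cell-cycle split at 0.3%. The number of pairs beyond 2-fold was 13 and lay between 9, with a floor of 100 UMIs per gene or after subtraction of the plasma cell-like level, and 16, with means of per-cell proportions or no floor beyond 1 UMI. Of 772 recomputed ratios of single pairs, 691 stayed within the interval of the reported value and 81 moved beyond it, and 0 of the pairs beyond 2-fold changed sign. Of 77 recomputed changes of the *Csf2rb* to *Csf2ra* ratio 1 reversed, in MEP-like cells, from 0.56 to -1.001 with means of per-cell proportions, and the cause was not tested. *Kit* was lower in cKO in each class measured under every setting that recomputed the ratio of levels, while its unthinned share of cells with a UMI in MEP-like cells was 50.4% in Ctrl and 52.5% in cKO. Less the plasma cell-like level, the direction of *Csf1r*, for which that level rests on 13 (Ctrl) and 1 (cKO) UMIs, turned in 2 classes. Those of *Il3ra* (HSC/MPP-like), *Csf3r* (imNeu-like) and *Il6ra* (mNeu-like) turned in 1 class each, the last 2 to higher in cKO. In cells of 3000 to 20000 UMIs, ProMon-like and MEP-like cells fell under 50 cells in cKO and 6 classes remained. The direction of *Csf3r* in mNeu-like cells turned to higher in cKO in that setting and under the higher floor on UMIs per cell. Few UMIs limit *Flt3* on the neutrophil path and *Csf2rb2* in HSC/MPP-like cells. In MEP-like cells the members other than *Kit* were not above plasma cell-like cells. No value here can separate the genotype from the library.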

Other observations

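For each member the genes with the most similar pattern were ranked by Pearson's correlation of log2(CPM + 1) over 25 points, the classes with at least 50 cells in either library, among 4703 genes with at least 50 CPM in 1 class of each library. The points share libraries and depth, so the values are descriptions. *Kit* was closest to *Ocrl* (0.873), *Zfp704* (0.835) and *Itga6* (0.779), the last an integrin chain found on progenitors. *Flt3* was closest to *Bex6* (0.817), *Slc29a3* (0.812) and *H2afy* (0.80), and *Csf1r* to *Ifi204* (0.915), *Clec4a3* (0.904) and *Clec4a1* (0.897), the last 2 C-type lectins of monocytes. Among the 3 closest to *Csf2ra* were *Mgst1* and *Nfam1*, at 0.934 each. *Csf2rb* was closest to *Fes* (0.922), a tyrosine kinase of myeloid cells, *Tmem50b* (0.909) and *Alox5ap* (0.899), which serves leukotriene synthesis. Among the 3 closest to *Csf2rb2* were *Dennd5a* (0.813) and *Msmo1* (0.805), a cholesterol synthesis enzyme. *Csf3r* was closest to *Ppp1r3b* (0.936), *Pxn* (0.887) and *S100a11* (0.881), *Il3ra* to *Cmtm7* (0.841), *Ramp1* (0.835) and *Cnpy3* (0.826), and *Il6ra* to *Soat1* (0.891), *Zfp710* (0.889) and *Tlr2* (0.862), a receptor for bacterial lipoproteins.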
